A study of Mus musculus with 15 samples.

Results

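The genes described here are 9 genes of the definitive and anterior endoderm, Sox17, Foxa2, Foxa1, Cer1, Trh, Hhex, Gsc, Pyy and Cxcr4, taken by gene symbol from 45232 genes in the deposited table. Of the 9 genes, 8 were abundant enough to be among the 16430 genes tested, and Pyy was not. RNA came from 15 single mouse embryos at embryonic day 7.5 on a mixed C57Bl6/CD-1 background. Apela KO embryos were null for Apela, which encodes a small secreted peptide ligand of the apelin receptor, and came from the mutant strains NEO-IN (n = 6, numbers 1 to 6) and NEO-OUT (n = 6, numbers 7 to 12). Wild-type embryos (n = 3) served as controls. The knockout embryos were offspring of homozygous knockout parents, so none was a littermate of a wild-type embryo. Stage was matched by morphology, extraembryonic tissue was kept with the embryo, and the labels give no litter, sex or batch, so strain, parentage and genotype cannot be told apart. Each embryo was 1 replicate, and p-values measure the spread between embryos.

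Definitive endoderm is the germ layer that forms the lining of the gut and its organs. Its cells leave the primitive streak under Nodal signalling and spread into the outer layer of the embryo, where they mix with visceral endoderm, an older extraembryonic epithelium. Several of the genes described here (Sox17, Foxa2, Foxa1, Hhex and Cer1) are also known to be active in visceral endoderm, and Foxa2 and Gsc also in the node or its derivatives. In zebrafish, embryos that lack the Apela peptide have defects of mesendodermal movement and of endoderm. In a whole embryo, fewer cells of a type and less RNA per cell cannot be told apart.

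The sequence before a RefSeq transcription start is shown for 4 genes: Trh and Foxa2, the pair that varied most closely together between embryos, Cer1, the gene with the widest spread for its level, and Foxa1, the close relative of Foxa2. Each line holds the 250 bases before a RefSeq start on GRCm38.p6, 5′ to 3′ on the strand of the gene, which is the minus strand for all of them. Capitals mark a TATA box in Trh, a CCAAT box read on the other strand (ATTGG) in Foxa2, and a CCAAT box and a forkhead factor motif on the other strand (GTAAACA) in Foxa1; Cer1 held none of the motifs searched. The windows are chr6:92244651-92244900 for Trh, chr2:148046970-148047219 for Foxa2, chr4:82885152-82885401 for Cer1 and chr12:57546112-57546361 for Foxa1. The Foxa1 window lies inside the gene as GENCODE places it (57540628 to 57546916, minus strand). It is therefore upstream of that RefSeq start only, not of the whole gene.
Trh: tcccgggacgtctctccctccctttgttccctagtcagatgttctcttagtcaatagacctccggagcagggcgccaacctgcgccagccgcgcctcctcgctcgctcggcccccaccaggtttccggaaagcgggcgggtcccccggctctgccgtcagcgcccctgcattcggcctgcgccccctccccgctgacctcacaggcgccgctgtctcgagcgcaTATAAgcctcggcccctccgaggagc
Foxa2: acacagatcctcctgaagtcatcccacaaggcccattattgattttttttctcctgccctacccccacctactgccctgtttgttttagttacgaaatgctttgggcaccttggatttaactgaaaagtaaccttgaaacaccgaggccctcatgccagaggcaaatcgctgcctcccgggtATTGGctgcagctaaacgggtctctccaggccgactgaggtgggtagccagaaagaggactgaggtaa
Cer1: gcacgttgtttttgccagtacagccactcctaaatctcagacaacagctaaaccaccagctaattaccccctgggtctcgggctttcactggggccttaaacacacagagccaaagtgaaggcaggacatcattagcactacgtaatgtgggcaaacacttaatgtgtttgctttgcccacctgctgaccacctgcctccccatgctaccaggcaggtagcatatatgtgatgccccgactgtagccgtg
Foxa1: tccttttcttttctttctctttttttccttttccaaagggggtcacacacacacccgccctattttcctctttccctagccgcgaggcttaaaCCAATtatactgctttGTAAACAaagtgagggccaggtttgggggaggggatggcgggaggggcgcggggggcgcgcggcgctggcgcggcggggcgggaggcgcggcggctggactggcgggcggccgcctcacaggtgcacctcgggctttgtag
The RefSeq table held 11 such windows for 8 of the 9 genes, all but Sox17, among 32851 windows in all. The windows of the other Foxa2 starts also lie inside the GENCODE gene, and those of Gsc and Hhex overlap their genes in part. The motifs were searched on both strands, except the TATA box. The forkhead motif TGTTTAC was in the Foxa1 window only, against 3.17% of all windows. The GATA motif AGATAA was in a window of 1 of the other Foxa2 starts, against 9.99% of all windows. The letters ACAATGG (SOX factors, 3.02% of all windows), TAATCC (OTX and GSC, 6.25%) and AATCCACA (FOXH1, 0.718%), of which the last shares AATCC with the one before, were in none of the 11. The CCAAT box was in 5 of the 11 windows, those of Foxa2, Foxa1, Hhex and both Pyy starts, against 33.8% of all windows. Both Pyy windows overlap and hold the same CCAAT box, which is thus counted for each. The letters TATAA on the gene's strand between -40 and -20 from the start were in the windows of Cxcr4, Trh and Pyy, against 3.38% of all windows.

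Libraries held 48.8 to 61.3 M reads, and 20427 to 21059 genes were detected in each. Values are normalized counts, which are reads divided by a size factor per library. Apela averaged 11.5 ± 7.24 in NEO-IN embryos, 69.6 ± 21.6 in NEO-OUT embryos and 1663 ± 505 in wild-type embryos (SD, n = 6, 6 and 3). Markers of visceral endoderm (13 of 13), node and notochord (8 of 8), parietal endoderm (8 of 8), trophoblast (13 of 13), primitive blood (8 of 8) and endothelium (10 of 11) were abundant enough to be tested, and of these lists Emcn (endothelium) and Prl3d1 (trophoblast) were at 0 in at least 1 embryo of each group. Between 7843 and 8995 reads of 4 Y-linked genes were found in NEO-IN 1, 2 and 3 and NEO-OUT 9 and 12, and no other library held more than 6.

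No endoderm gene passed the test against wild-type in either strain, and fitted log2 fold changes ran from -0.23 (Cer1 in NEO-OUT) to 0.42 (Gsc in NEO-IN). A gene was called changed at a Benjamini-Hochberg adjusted p under 0.05 in limma across all genes tested. In NEO-IN against wild-type, none of the 8 genes tested was called, while 2.98% of all genes tested were called, 1.53% higher and 1.44% lower. None passed in NEO-OUT against wild-type, with 6.35% of all genes called, 3.34% higher and 3.01% lower. None passed in Apela KO against wild-type, the mean of both strain effects, with 2.83% of all genes called, 1.61% higher and 1.22% lower. edgeR and DESeq2 on recovered reads also called 0 of 8 in each of these comparisons, and at an unadjusted limma p under 0.05 the counts were 2, 1 and 1. The median log2 fold change of the 8 genes was -0.02 in NEO-IN, 0.04 in NEO-OUT and 0.07 in Apela KO, each against wild-type, with a median over all genes tested of 0.00 in each. The 3 comparisons share the same wild-type embryos. In none of the 8 genes were the embryos of a strain, or all 12 knockout embryos, clear of the wild-type embryos, whereas 10.8%, 13.7% and 3.39% of all genes had no overlap in NEO-IN, NEO-OUT and Apela KO.

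**Figure D1:**
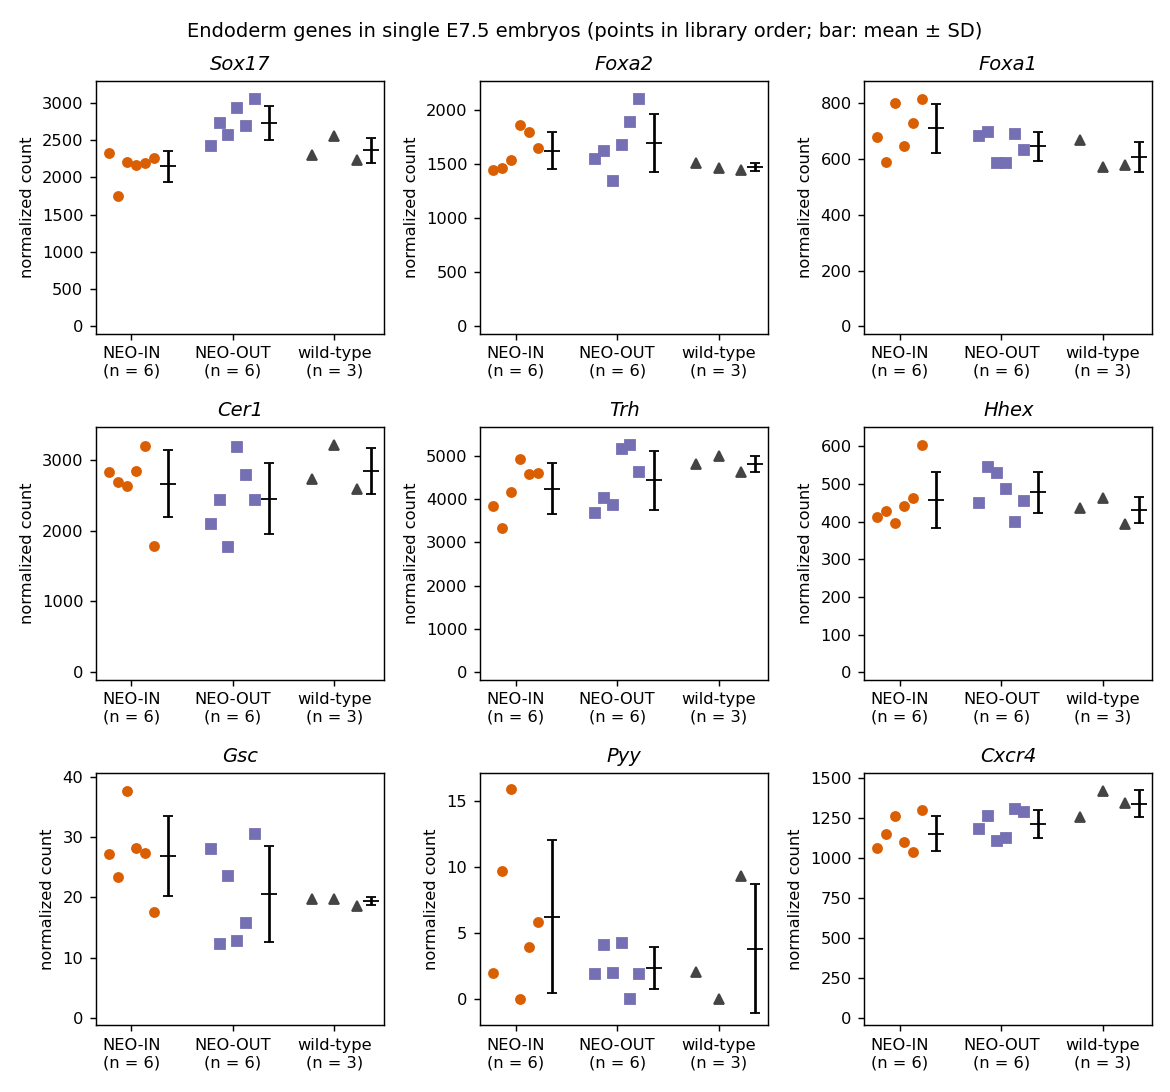
Normalized counts (vertical axis, from 0) of the 9 endoderm genes in each NEO-IN, NEO-OUT and wild-type embryo, with a bar for the group mean ± SD beside the points. Wild-type values lie within or beside the knockout range for each gene, and of the 9 genes Sox17 alone shows no overlap of the strains, at 1743 to 2326 in NEO-IN and 2416 to 3047 in NEO-OUT.

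Among the transcription factors, Sox17 specifies definitive endoderm and is also needed in early endothelium. The gene (ENSMUSG00000025902.10) lies on chromosome 1 from 4490931 to 4497354 on the minus strand in GRCm38. Its normalized count in NEO-IN embryos was 1743 at the lowest, 2195 at the median and 2326 at the highest. In NEO-OUT embryos it was 2416, 2709 and 3047, lowest, median and highest. The wild-type embryos had 2293, 2550.1 and 2234. Every NEO-IN embryo was below every NEO-OUT embryo, and the wild-type embryos lay across the upper part of the NEO-IN range and the lower part of the NEO-OUT range. Against wild-type, the log2 fold change was -0.14 in NEO-IN (SE 0.09, 95% interval -0.32 to 0.04, limma adjusted p = 0.409). It was 0.21 in NEO-OUT (SE 0.09, 95% interval 0.03 to 0.39, limma adjusted p = 0.153). In Apela KO, the strains averaged to 0.03 (SE 0.08, limma adjusted p = 0.849).

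Foxa2, the forkhead factor of endoderm, node and axial mesendoderm (ENSMUSG00000037025.8, chromosome 2, 148042877 to 148046969, minus strand), had 1449 at the lowest, 1590.2 at the median and 1856 at the highest in NEO-IN embryos. In NEO-OUT embryos it had 1339, 1648 and 2099. Wild-type embryos had 1512, 1463 and 1441. Of the 12 knockout embryos, 9 were above every wild-type embryo (4 of NEO-IN and 5 of NEO-OUT), NEO-IN 1 and 2 lay within the wild-type range, and NEO-OUT 9 was below it. The means were 1624 ± 173 in NEO-IN, 1695 ± 267 in NEO-OUT and 1472 ± 36.3 in wild-type (SD, n = 6, 6 and 3). Against wild-type, Foxa2 had a log2 fold change of 0.14 in NEO-IN (SE 0.11, 95% interval -0.10 to 0.37, limma adjusted p = 0.561). It was 0.19 in NEO-OUT (SE 0.11, 95% interval -0.05 to 0.42, limma adjusted p = 0.329).

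Foxa1, a forkhead factor that overlaps in function with Foxa2 in the gut (ENSMUSG00000035451.6, chromosome 12, 57540628 to 57546916, minus strand), had 589.6, 702 and 814 in NEO-IN embryos, lowest, median and highest. NEO-OUT embryos had 584, 657 and 696, and wild-type embryos had 667, 572 and 578. NEO-IN 1, 3, 5 and 6 and NEO-OUT 7, 8 and 11 exceeded all wild-type embryos, but the groups overlapped. Foxa1 had a log2 fold change of 0.22 in NEO-IN versus wild-type (SE 0.10, 95% interval 0.00 to 0.44, unadjusted p = 0.0458, limma adjusted p = 0.268). It was 0.09 in NEO-OUT versus wild-type (SE 0.10, 95% interval -0.13 to 0.31, limma adjusted p = 0.647).

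Hhex, a homeobox repressor of the anterior endoderm (ENSMUSG00000024986.8, chromosome 19, 37434810 to 37440731, plus strand), had 396, 435 and 604 in NEO-IN embryos, lowest, median and highest. It had 399, 472 and 546 in NEO-OUT embryos and 436, 462 and 393 in wild-type embryos. All groups overlapped, and NEO-IN 6 had the highest value. Against wild-type, Hhex had a log2 fold change of 0.08 in NEO-IN (95% interval -0.19 to 0.34, limma adjusted p = 0.796) and 0.15 in NEO-OUT (95% interval -0.12 to 0.41, limma adjusted p = 0.522).

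Gsc, a homeobox factor of the anterior streak and prechordal region (ENSMUSG00000021095.5, chromosome 12, 104471209 to 104473330, minus strand), was scarce. It had 17.6, 27.2 and 37.7 in NEO-IN embryos, lowest, median and highest, 12.3, 19.6 and 30.5 in NEO-OUT embryos, and 19.7, 19.8 and 18.6 in wild-type embryos. Knockout embryos lay on both sides of the wild-type embryos in each strain, though 5 of the 6 NEO-IN embryos were above them. Against wild-type, Gsc had 0.42 on the log2 scale in NEO-IN, with a 95% interval from -0.25 to 1.09 (SE 0.32, limma adjusted p = 0.526). It was -0.01 in NEO-OUT, with a 95% interval from -0.68 to 0.66 (SE 0.32, limma adjusted p = 0.991), so changes of either sign within these bounds were not detectable at this depth.

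Cer1 encodes a secreted antagonist of Nodal, BMP and Wnt signals made by anterior endoderm (ENSMUSG00000038192.5, chromosome 4, 82881751 to 82885148, minus strand). Its normalized count was 1777, 2757 and 3195 in NEO-IN embryos, lowest, median and highest. It was 1771, 2434 and 3184 in NEO-OUT embryos and 2733, 3206 and 2589 in wild-type embryos. NEO-IN 6 and NEO-OUT 7, 8, 9 and 12 were below every wild-type embryo, and the other knockout embryos lay within the wild-type range. The log2 fold change was -0.11 in NEO-IN (SE 0.17, 95% interval -0.46 to 0.24, limma adjusted p = 0.774). It was -0.23 in NEO-OUT (SE 0.17, 95% interval -0.59 to 0.12, limma adjusted p = 0.430), each against wild-type.

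Among the peptide hormone genes, Trh encodes the precursor of thyrotropin-releasing hormone and is known from the definitive endoderm of the mouse gastrula (ENSMUSG00000005892.4, chromosome 6, 92242061 to 92244650, minus strand). It had 3320.3, 4369 and 4909.8 in NEO-IN embryos, lowest, median and highest. It had 3675, 4317 and 5243 in NEO-OUT embryos and 4805, 4979 and 4619 in wild-type embryos. Most knockout embryos were below the wild-type embryos, while NEO-IN 4 lay within their range and NEO-OUT 10 and 11 above it. The log2 fold change was -0.19 in NEO-IN (SE 0.12, 95% interval -0.44 to 0.06, limma adjusted p = 0.425). It was -0.13 in NEO-OUT (SE 0.12, 95% interval -0.38 to 0.12, limma adjusted p = 0.558), each against wild-type.

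Pyy encodes peptide YY, a gut hormone (ENSMUSG00000017311.12, chromosome 11, 102106676 to 102107832, minus strand). It was near 0 in all embryos, at 0, 4.88 and 15.9 in NEO-IN embryos, lowest, median and highest, 0, 1.93 and 4.26 in NEO-OUT embryos, and 2.08, 0 and 9.32 in wild-type embryos. Each group had 1 embryo without a read, NEO-IN 4, NEO-OUT 11 and wild-type 2. A count of 0 allows up to 3 reads, or normalized counts of 3.53, 2.94 and 2.97 in these embryos, for counting error only. If both mates of a fragment were counted, that limit holds for fragments and these values are too low. With 0 to 16 reads per embryo and a mean normalized count of 4.19, Pyy was not tested, and no difference between the groups was detectable at this depth.

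Cxcr4 encodes the receptor of the chemokine Cxcl12, and in zebrafish this pair ties endoderm movement to that of the mesoderm. The gene (ENSMUSG00000045382.6, chromosome 1, 128588199 to 128592293, minus strand) had 1034, 1124 and 1299 in NEO-IN embryos, lowest, median and highest. It had 1104, 1222 and 1306 in NEO-OUT embryos and 1253, 1419.6 and 1342 in wild-type embryos. The wild-type embryos were at the upper end, but NEO-IN 3 and 6 and NEO-OUT 8, 11 and 12 exceeded the lowest of them. The log2 fold change was -0.22 in NEO-IN (SE 0.08, 95% interval -0.39 to -0.05, unadjusted p = 0.0139, limma adjusted p = 0.159). It was -0.15 in NEO-OUT (SE 0.08, limma adjusted p = 0.298) and -0.18 in Apela KO (SE 0.07, 95% interval -0.34 to -0.03, unadjusted p = 0.0235, limma adjusted p = 0.193), each against wild-type. Cxcr4 did not pass the adjusted threshold in any comparison.

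Apela KO versus wild-type gave log2 fold changes between -0.18 (Cxcr4) and 0.20 (Gsc) for the 8 genes, with limma adjusted p from 0.193 to 0.849. Foxa2 had 0.16 (95% interval -0.05 to 0.38), Foxa1 0.16 (-0.04 to 0.35) and Hhex 0.11 (-0.13 to 0.35). Trh had -0.16 (-0.39 to 0.07) and Cer1 -0.17 (-0.49 to 0.15).

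**Figure D2:**
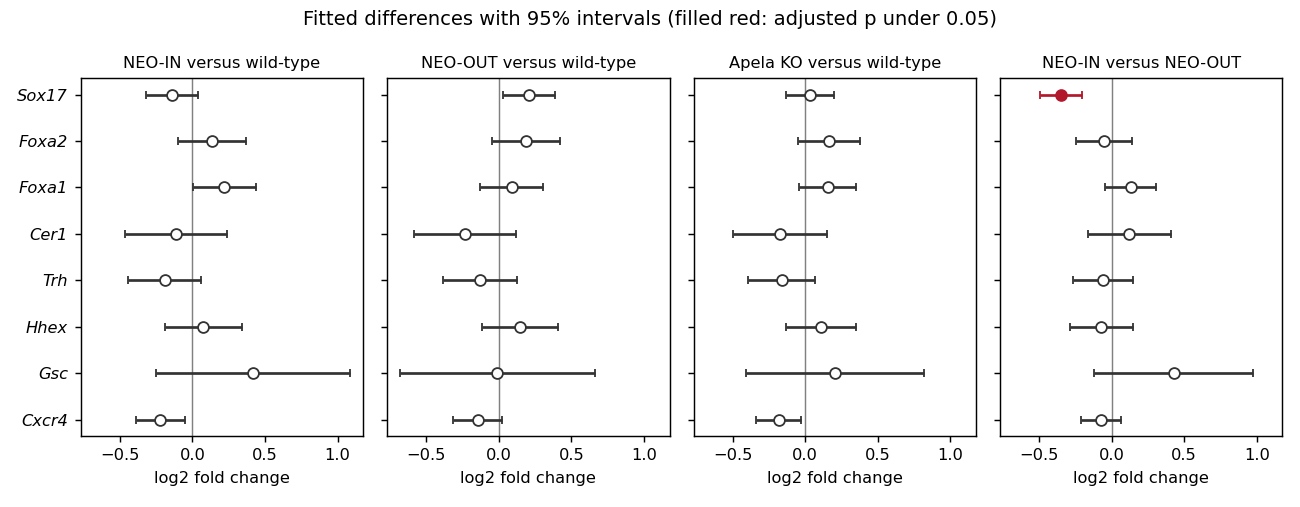
Fitted log2 fold changes (horizontal axis) of the 8 endoderm genes tested, with 95% intervals, in NEO-IN, NEO-OUT and Apela KO against wild-type and in NEO-IN against NEO-OUT. Sox17 in NEO-IN versus NEO-OUT, at -0.35, is the 1 filled point past the adjusted threshold, and the intervals of Gsc are the widest.

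The strains differed from each other in Sox17. The log2 difference of NEO-IN from NEO-OUT was -0.35 (SE 0.07, 95% interval -0.49 to -0.20, limma adjusted p = 0.00337), which is 1.27-fold lower in NEO-IN, at 2146 ± 206 against 2729.5 ± 231 in NEO-OUT (SD, n = 6 each). Sox17 was the 1 of 8 genes called in this comparison, where 13.3% of all genes tested were called, 6.74% higher and 6.52% lower, and it ranked 495 of 16430 by p. Its groups did not overlap, which held for 5.82% of all genes in either direction and 2.96% in the lower direction. The adjusted p was 0.00316 in edgeR and 5.02e-05 in DESeq2. The 7 other genes were not called, with log2 fold changes from -0.08 (Cxcr4, limma adjusted p = 0.499) to 0.43 (Gsc, limma adjusted p = 0.304) and a median of -0.06 over all 8, against 0.00 over all genes tested.

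Visceral endoderm markers moved with Sox17 between the strains. Of the 13 markers, 5 fell in NEO-IN relative to NEO-OUT, none rose, and all 13 had negative fold changes with a median of -0.18. The share of all genes tested that were called lower between the strains was 6.52%. The thyroid hormone carrier Ttr averaged 27863 ± 2885 in NEO-IN and 40591 ± 5251 in NEO-OUT (SD, n = 6 each, log2 fold change -0.54, limma adjusted p = 0.000473). The other 4 were the iron carrier Trf (-0.66, limma adjusted p = 0.0157), the transcription factor Hnf4a (-0.22, limma adjusted p = 0.00265), the apolipoprotein Apoa1 (-0.28, limma adjusted p = 0.0290) and the sterol acyltransferase Soat2 (-0.18, limma adjusted p = 0.0233). Summed over the list, normalized counts were 466022 to 578889 in NEO-IN, 542952 to 638431 in NEO-OUT and 541181 to 569462 in wild-type, and no marker was at 0. Against wild-type, Ttr (0.46, limma adjusted p = 0.0136), Soat2 (0.21, limma adjusted p = 0.0456) and Apoa1 (0.35, limma adjusted p = 0.0468) rose in NEO-OUT, and no marker was called in NEO-IN or Apela KO. With the mean log2 level of the visceral endoderm markers as a covariate, the Sox17 difference was -0.19 (SE 0.09, limma adjusted p = 0.307) and was no longer called. Over all genes tested, the number called between the strains was 441 with that covariate and 2180 without it. The marker level itself ran from -0.22 to -0.04 in NEO-IN and from -0.05 to 0.29 in NEO-OUT, so this fit cannot tell it apart from strain.

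The Sox17 difference stayed past the threshold with a Hox covariate, with a trophoblast covariate and without the Y-linked libraries. Its size was smaller than the first value or close to it. It was -0.27 with a Hox score (limma adjusted p = 0.0255), -0.34 with a trophoblast score (limma adjusted p = 0.00671), and -0.29 in the embryos without Y-linked reads (limma adjusted p = 0.0271). The antisense gene model Gm37587 overlaps Sox17 and had a mean normalized count of 0.986, so reads on it were few, although the strand setting of the counting is not given in the sources used here.

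**Figure D3:**
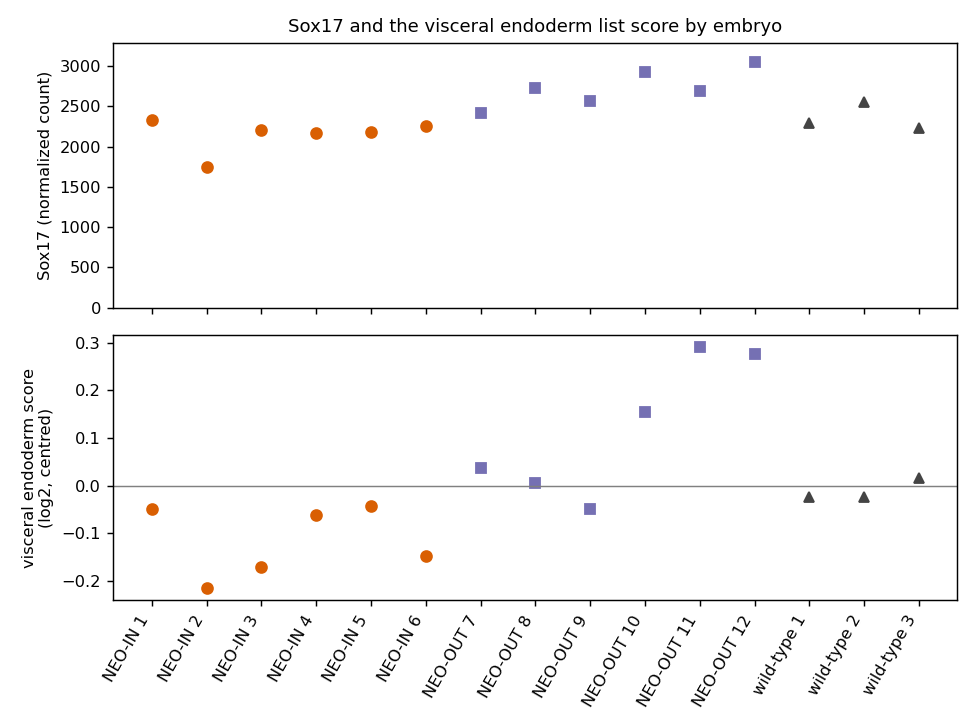
Sox17 normalized count (upper panel, from 0) and the mean centred log2 level of 13 visceral endoderm markers (lower panel) in each embryo. Both were lower in most NEO-IN embryos, but the marker level of NEO-OUT 9, at -0.05, fell within the NEO-IN range of -0.22 to -0.04, whereas Sox17 did not overlap.

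The other regulators of endoderm showed a strain difference in the same direction as Sox17 for several genes. Of 12 listed, all tested, 4 fell and 1 rose in NEO-IN relative to NEO-OUT, with a median log2 fold change of -0.21. Over all genes tested, 6.52% were called lower and 6.74% higher in this comparison. Gata4, a zinc finger factor of visceral endoderm and heart, averaged 7675 ± 238 in NEO-IN and 9365 ± 710 in NEO-OUT (SD, n = 6 each, log2 fold change -0.28, limma adjusted p = 0.000522). Foxa3, the third gene of the Foxa group, averaged 563 ± 80.0 and 811 ± 76.8 in the same strains (-0.53, limma adjusted p = 0.000973). Eomes, a T-box factor required for definitive endoderm, fell by 0.49 on the log2 scale (limma adjusted p = 0.0215). Otx2, a homeobox factor of anterior endoderm and neuroectoderm, was 0.24 higher in NEO-IN (limma adjusted p = 0.0119).

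Against wild-type, none of the 12 regulators was called in NEO-IN, though all had negative fold changes with a median of -0.18 against 0.00 over all genes. The lowest limma adjusted p among them was 0.0974, and 5 of the 12 had an unadjusted p under 0.05. In NEO-OUT, Gata4 (0.22, limma adjusted p = 0.0212) and Foxa3 (0.38, limma adjusted p = 0.0490) rose and Otx2 fell (-0.42, limma adjusted p = 0.00243). In Apela KO, Otx2 fell (-0.30, limma adjusted p = 0.0197) and no other regulator was called.

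The Nodal and Wnt antagonists were listed with the Wnt receptors Fzd5 and Fzd8 of the anterior embryo. Of these 6 genes, 2 antagonists and both receptors rose in NEO-IN relative to NEO-OUT, where 6.74% of all genes tested were called higher. The median over the list was 0.25. The genes that rose were the secreted Wnt antagonists Sfrp5 (log2 fold change 1.34, limma adjusted p = 0.00821) and Sfrp1 (0.27, limma adjusted p = 0.00578), with Fzd5 (0.36, limma adjusted p = 0.00224) and Fzd8 (0.24, limma adjusted p = 0.0378). The other two antagonists had negative log2 fold changes and were not called. The Nodal antagonist Lefty1 averaged 5.40 normalized counts in NEO-IN and 22.7 in NEO-OUT (-1.83, limma adjusted p = 0.100), and the Wnt antagonist Dkk1 had -0.02 (limma adjusted p = 0.947). Against wild-type, 1 was called, Sfrp1, which fell in NEO-OUT (-0.35, limma adjusted p = 0.00812). Cer1, which acts in the same tissue, had 0.12 in NEO-IN versus NEO-OUT and was not called (95% interval -0.16 to 0.41, limma adjusted p = 0.606).

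Among epithelial genes listed for endoderm, 2 of 8 were called in NEO-IN versus NEO-OUT and 1 in NEO-OUT versus wild-type. Whether these changes lie in endoderm was not tested, as other epithelia of the whole embryo were sequenced with it. Krt19 of this list was highest in NEO-IN 2 (5297) and NEO-OUT 10 (4543), as was Plet1 of the trophoblast list (2335 and 2027). Over all genes tested, 13.3% and 6.35% were called in these comparisons. Of 8 genes, the claudins Cldn6 (log2 fold change -0.17, limma adjusted p = 0.0387) and Cldn4 (-0.25, limma adjusted p = 0.0426), proteins of tight junctions, fell in NEO-IN relative to NEO-OUT. The secreted trypsin inhibitor Spink1 rose in NEO-OUT versus wild-type (0.67, limma adjusted p = 0.0313), and no gene of the list was called in NEO-IN or in Apela KO against wild-type. Of the binding partners of Cxcr4, Trh and Pyy, 3 of 5 were tested and limma called none in any comparison, with 0 at an unadjusted p under 0.05. The smallest p was that of Npy1r, a receptor of peptide YY, in NEO-OUT versus wild-type (-0.39, limma adjusted p = 0.446). The thyrotropin-releasing hormone receptor gene Trhr was at 0 in all embryos, while Cxcl12 had 3299.8 to 3670.4 in NEO-IN, 2919 to 3648 in NEO-OUT and 3190.4 to 3396 in wild-type.

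Other cells of the embryo that share these genes were also counted. Node and notochord markers rose in 2 of 8 genes in NEO-IN relative to NEO-OUT, where 6.74% of all genes tested were called higher. They were Noto (0.65, limma adjusted p = 0.000844) and Shh (0.99, limma adjusted p = 0.00552). In that comparison 7 of 8 log2 fold changes were positive, with a median of 0.17. No marker was called against wild-type, though all 8 were negative in NEO-OUT versus wild-type (median -0.22, 3 at an unadjusted limma p under 0.05). Foxa2, which marks the node as well, had -0.05 in NEO-IN versus NEO-OUT (95% interval -0.24 to 0.14, limma adjusted p = 0.754). No endothelial marker of 10 tested was called in any comparison (0 to 3 at an unadjusted p under 0.05), the smallest p being that of Tie1 in NEO-IN versus NEO-OUT (-0.42, limma adjusted p = 0.0502). Of 8 blood markers, Gfi1b fell in NEO-IN relative to NEO-OUT (-0.56, limma adjusted p = 0.00332). The blood list as a whole was split there, with 4 positive and 4 negative log2 fold changes and a median of -0.04. No parietal endoderm marker of 8 was called in any comparison (0 or 1 at an unadjusted p under 0.05). Snai1 in Apela KO versus wild-type had the smallest p (-0.40, limma adjusted p = 0.143). Of 13 trophoblast markers, Rhox9 rose in NEO-IN (1.18, limma adjusted p = 0.0259) and Apela KO (1.02, limma adjusted p = 0.0357) and Esrrb in NEO-OUT (0.35, limma adjusted p = 0.0459), each against wild-type.

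Most genes of the trophoblast list had positive values against wild-type. The log2 fold changes were positive in 9 of 13 genes in NEO-IN (median 0.31), 12 of 13 in NEO-OUT (median 0.38) and 10 of 13 in Apela KO (median 0.34), beside a median of 0.00 over all genes tested in each. The mean centred log2 level of the list was -0.42 in NEO-IN 5 and -0.06 to 0.80 in the other knockout embryos, against -0.44 to -0.28 in wild-type embryos. This mean includes the scarce gene Prl3d1, at 0 in the wild-type embryos and NEO-IN 5. In the other knockout embryos Prl3d1 ran from 0 to 276, the highest being NEO-IN 6. With the level of the list as a covariate, 0 endoderm genes were called against wild-type, as without it. Esrrb also fell in NEO-IN relative to NEO-OUT (-0.44, limma adjusted p = 0.00227). Of 12 Hox genes, which come on as the embryo advances, Hoxb1 (-0.54, limma adjusted p = 0.0355) and Hoxb2 (-0.44, limma adjusted p = 0.0354) fell in NEO-OUT versus wild-type. All 12 had negative values there, with a median of -0.43, and in NEO-IN relative to NEO-OUT 11 of 12 were positive, with a median of 0.36 and 1 called higher. The mean centred log2 level of the 12 Hox genes was -1.22 in NEO-OUT 10, -0.25 in NEO-OUT 11 and -0.40 in NEO-OUT 12, against -0.15 to 0.50 in all other embryos. Of 8 anterior neuroectoderm genes, Otx2 alone was called against wild-type, as given above. Between the strains, 5 were called in NEO-IN relative to NEO-OUT, beside 13.3% of all genes tested. Sox1 (0.92), Hesx1 (0.77), Six3 (0.64) and Otx2 rose there and En1 fell (-0.78). Against wild-type, the log2 fold changes of this list were negative in 7 of 8 genes in NEO-OUT (median -0.44). They were negative in 8 of 8 in Apela KO (median -0.23) and in 5 of 8 in NEO-IN (median -0.10). The part of stage or tissue share in the Sox17 difference was not tested.

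**Figure D4:**
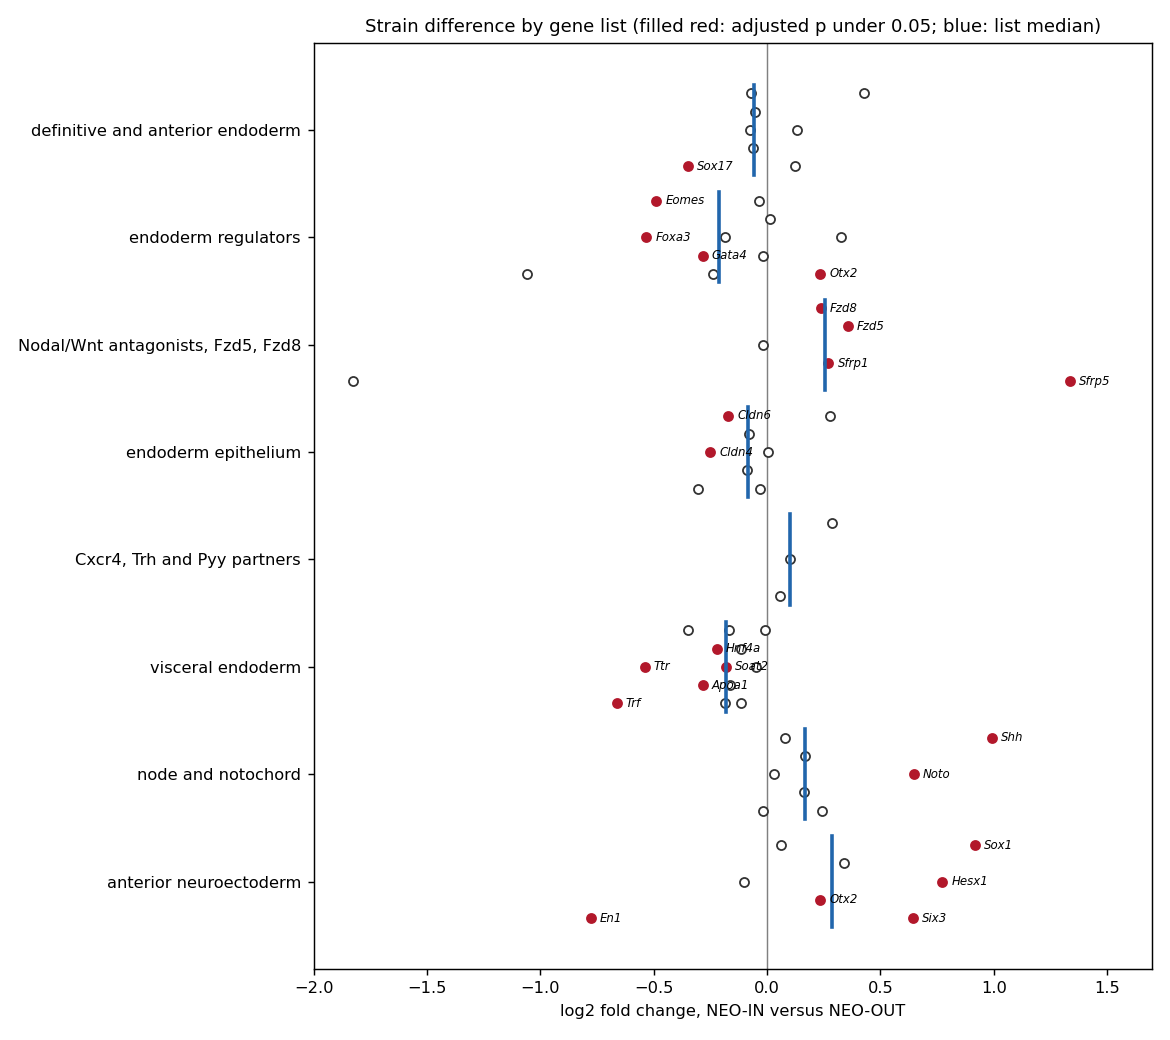
Log2 fold changes (horizontal axis) of single genes in NEO-IN versus NEO-OUT, by gene list, with filled points for limma adjusted p under 0.05 and a blue line at the median of each list; 1 gene that is not reported here is not drawn. The median was -0.06 for the definitive and anterior endoderm genes, -0.21 for the endoderm regulators, 0.25 for the antagonists with Fzd5 and Fzd8, and -0.18 for visceral endoderm.

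Levels of the endoderm genes can be compared with each other per kilobase of exon. Trh was the most abundant, at 3061 normalized counts per kilobase in NEO-IN, 3200.5 in NEO-OUT and 3469 in wild-type embryos (means). Cer1 came next at 1530.1, 1408 and 1635 in the same groups, and the order from there was Cxcr4 or Foxa2, Sox17, Foxa1, Hhex, Gsc and Pyy. Cxcr4 and Foxa2 changed places between embryos, with Foxa2 above Cxcr4 in 3 NEO-IN, 3 NEO-OUT and 0 wild-type embryos. Gsc was above Pyy in 14 of 15 embryos, and all other neighbours in this order kept it in 15 of 15. Foxa2 exceeded its relative Foxa1 by 2.70 to 4.66 times per kilobase (median 3.47).

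Within their groups, Cer1 and Trh varied widely between embryos for genes of their level. The residual SD of Cer1 was 0.28 on the log2 scale, against a median of 0.09 among 4487 genes of similar mean level, the 98.0th percentile. That of Trh was 0.20 against 0.08 (96.3rd percentile of 4052 genes), and that of Foxa2 0.18 against 0.10 (89.1st percentile of 4239 genes). Sox17, at 0.13, was at the 81.0th percentile, and Cxcr4, Foxa1 and Hhex were at the 51.7th to 61.2nd percentile, near the middle for their level. Gsc, at 0.42, was at the 24.0th percentile of equally scarce genes.

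The spread of Trh and Foxa2 followed library numbers within each strain. In NEO-IN, Trh had 3846, 3320.3 and 4158 in embryos 1 to 3 and 4909.8, 4579.6 and 4608 in embryos 4 to 6. In NEO-OUT it had 3675, 4020.1 and 3861 in embryos 7 to 9 and 5162, 5243 and 4615 in embryos 10 to 12. The second run of 3 was above the first in both strains without overlap. This division of the embryos was chosen after their values were seen. Over all 16430 genes tested, 11.1% had NEO-IN 4 to 6 above NEO-IN 1 to 3 without overlap, 6.68% had NEO-OUT 10 to 12 above NEO-OUT 7 to 9, and 0.73% had both. Foxa2 also had both, with 1645 to 1856 in NEO-IN 4 to 6 and 1449 to 1535 in NEO-IN 1 to 3. In NEO-OUT, Foxa2 had 1677 to 2099 in embryos 10 to 12 and 1339 to 1620.0 in embryos 7 to 9. Hhex had the later run higher without overlap in NEO-IN alone, at 443 to 604 in embryos 4 to 6 and 396 to 428 in embryos 1 to 3. The labels do not say whether a run shares a litter or a batch, and the Y-linked reads separated the runs in NEO-IN but not in NEO-OUT. The mean centred Hox level was -1.22 to -0.25 in NEO-OUT 10 to 12 and 0.03 to 0.19 in NEO-OUT 7 to 9. That of visceral endoderm was 0.15 to 0.29 against -0.05 to 0.04 in the same runs. Neither level separated the runs in NEO-IN. The part of any of these in this pattern was not tested.

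**Figure D5:**
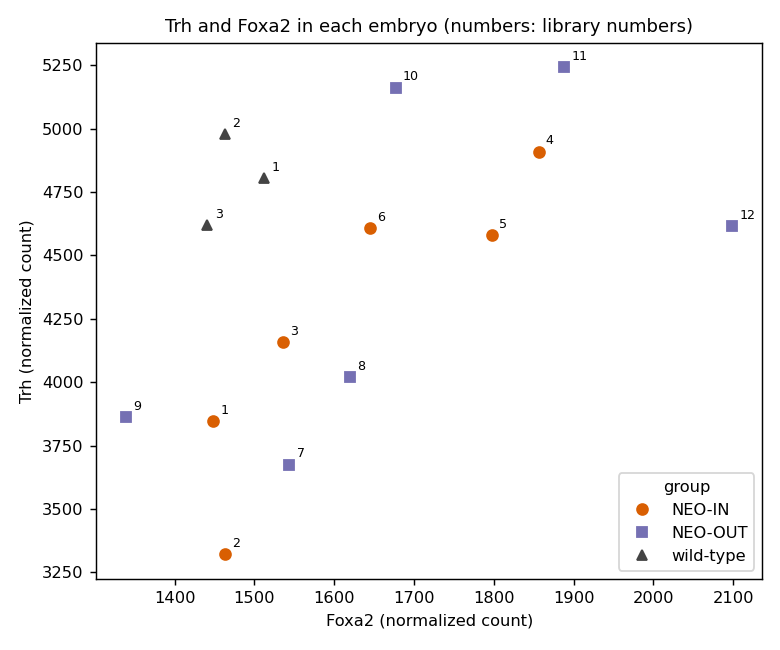
Trh against Foxa2 (normalized counts on both axes) in each embryo, with library numbers beside the points. For Trh, NEO-IN 4 to 6 lie above NEO-IN 1 to 3 and NEO-OUT 10 to 12 above NEO-OUT 7 to 9, with no overlap in either strain, and the wild-type embryos combine high Trh with Foxa2 between 1441 and 1512.

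Over 15 embryos with group means removed, Foxa2 and Trh had a Pearson r of 0.73 (permutation p = 0.0114, adjusted p = 0.358 over 36 pairs) and a Spearman rho of 0.84 (permutation p = 0.00245, adjusted p = 0.0882). Without the embryos farthest from the median of Foxa2, NEO-OUT 9 and 12, r was 0.83. With the means of runs of 3 removed in place of group means, r was -0.04, so the relation did not hold within runs. Sox17 and Trh had an r of 0.66 (permutation p = 0.0199, adjusted p = 0.358) and a rho of 0.50 (permutation p = 0.0862, adjusted p = 0.775). That r was 0.28 without NEO-IN 2 and NEO-OUT 7 and 0.56 within runs, so it rested in part on those embryos. None of the 36 pairs passed an adjusted p of 0.05, and 21 had a positive r.

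The genes most like each endoderm gene across embryos were sought among 12669 named genes, as r over 15 embryos with group means removed and as a description only. Foxa2 was followed most closely by Gipc2 (r = 0.969) and Ccdc151 (0.880), Cer1 by Adrb3 (0.947) and Aldh3a2 (0.911), and Trh by Cenpk (0.908). Sox17 was followed by Kbtbd13 (0.870) and Gpr137b (0.861), Foxa1 by Mmp14 (0.864) and Fam110a (0.859), and Hhex by Lysmd3 (0.864) and Ppp2r5e (0.857). Gsc was followed by Acap1 (0.855) and Arhgap4 (0.837), and Cxcr4 by Dpysl4 (0.839) and Taf12 (0.838). No other endoderm gene of the 9 was among these.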

How the data were processed

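Polyadenylated RNA of single embryos was sequenced from stranded TruSeq libraries, per the labels' protocols. STAR, Picard, featureCounts, DESeq2, kallisto and mm10 are named, without roles, per the submitters' processing notes. The authors deposited signal values that are gene counts divided by a size factor for each library. Whole reads were recovered from the smallest steps for 100% of values (within 0.01), with size factors of 0.850 to 1.07. Of low read numbers, 76.9% to 79.1% were even, a pattern that counting both mates would give, so that fragments may number fewer than reads, and limits for a count of 0 cover counting error only. Symbols and coordinates came from GENCODE on GRCm38 and matched 98.6% of identifiers. In 1 cell, a stray letter was removed.

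limma-trend (limma 3.58.1, R 4.3.3) was fitted to 16430 genes (mean normalized count of at least 10) on the scale log2(normalized count + 1), with 3 groups and all 15 embryos in 1 fit. Fold changes are on that scale and are understated for scarce genes. Significance was a Benjamini-Hochberg adjusted p under 0.05 over all genes tested. The fit was tested on simulated data. Alternatives included edgeR 4.0.16 and DESeq2 1.42.0 on the recovered reads. Against wild-type, edgeR called 525 genes for NEO-IN, 1059 for NEO-OUT and 488 for Apela KO. Between the strains it called 2157. Named were all 9 endoderm genes, from each other list up to 4 called genes or else the 1 with the smallest p, and the 2 genes most like each endoderm gene (mean of at least 50). Where a list had more called genes, the rest were named after their values were seen. Results of 3 further genes that this rule names are not reported here, although they remain in the counts and medians. The 9 genes and the lists were chosen with earlier results of these data known.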

Additional observations from a re-analysis of the deposited data

Results flagged for a closer look

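Among 18 sets of 6 embryos (9 genes in 2 strains), 2 held an embryo that stood apart from the other 5 by more than the 95% limit of Dixon's test, and chance flags about 1 in 20 such sets. Sox17 was low in NEO-IN 2, at a normalized count of 1743 against 2165 to 2326 in the other NEO-IN embryos. Without NEO-IN 2, the log2 fold change of NEO-IN versus NEO-OUT was -0.29 and Sox17 was still called (limma adjusted p = 0.00448). Hhex was high in NEO-IN 6, at 604 against 396 to 463 in the other NEO-IN embryos. NEO-IN 6 also had the highest mean centred log2 level of all embryos for the endothelial list (0.35) and the trophoblast list (0.80). The part of tissue share in its Hhex value was not tested.

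Both strains lack Apela, and 11 reported genes of the endoderm lists were picked out because the effects of the strains against wild-type differed from each other, tested as NEO-IN versus NEO-OUT in limma. The log2 difference was -0.35 for Sox17, -0.49 for Eomes, -0.28 for Gata4 and -0.53 for Foxa3. It was 0.24 for Otx2, 0.27 for Sfrp1, 1.34 for Sfrp5, 0.36 for Fzd5 and 0.24 for Fzd8. It was -0.25 for Cldn4 and -0.17 for Cldn6. In this comparison 13.3% of all genes tested were called.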

How the results depend on the processing

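Across the alternatives, 932 of 964 values of single endoderm genes kept their direction and their side of the threshold, as did 120 of 121 counts of endoderm genes called. Many of these values could not change direction. The fold change stays the same without an embryo of a group not compared, with only the groups compared, and with runs as a random block. Those fits change the p-value only, so the total overstates how far direction was tested. The exception among the counts was NEO-IN versus NEO-OUT with the visceral endoderm score as a covariate, where 0 endoderm genes were called and Sox17 had -0.19. Leaving out each embryo in turn kept 1 gene called there, with Sox17 at -0.38 to -0.29, and 0 in each comparison with wild-type. Fitting only the groups compared gave no separate value for Apela KO versus wild-type, which already used all embryos.

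No gene value that changed sign passed the threshold in the fit reported or under the alternative, and the cause was not tested. In NEO-IN versus wild-type, Hhex was -0.0055 with the visceral endoderm score, -0.057 with the trophoblast score and -0.0069 to 0.13 without 1 embryo, and Cer1 was 0.034, 0.16 and -0.18 to 0.00014 under the same settings. In NEO-OUT versus wild-type, Gsc was 0.0038 with a pseudocount of 5, 0.0860 in edgeR, 0.0855 in DESeq2, 0.30 with the trophoblast score, 0.076 with the Hox score and -0.14 to 0.11 without 1 embryo. In Apela KO versus wild-type, Hhex was -0.0080 and Cer1 0.074 with the trophoblast score, and Sox17 was -0.0046 with the Hox score and -0.0040 to 0.091 without 1 embryo. In NEO-IN versus NEO-OUT, Trh was 0.24 with the visceral endoderm score, 0.046 with the Hox score, 0.071 in embryos without Y-linked reads and -0.11 to 0.0057 without 1 embryo. Foxa2 there was 0.26, 0.0015, 0.072 and -0.12 to 0.012 under the same settings, and without Y-linked reads Hhex was 0.091 and Cer1 -0.036. The r of Foxa2 and Trh within runs was -0.044. Alternatives with Y-linked reads or runs in the correlation were chosen after seeing the data.

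Counts over all genes moved more. NEO-IN versus wild-type (489) gave 928 in DESeq2, 292 with the visceral endoderm score, 132 with the trophoblast score, 237 with runs of 3 as a random block, 800 with array quality weights and 206 to 598 without 1 embryo. NEO-OUT versus wild-type (1043) gave 1628 in DESeq2, 306 with the trophoblast score, 545 with the Hox score, 531 with runs as a block, 1613 with weights and 383 to 1232 without 1 embryo. Apela KO versus wild-type (465) gave 900 in DESeq2, 89 with the trophoblast score, 188 with runs as a block, 865 with weights, 175 with the 12 knockouts as 1 group, 306 with Y-linked reads as a covariate and 153 to 477 without 1 embryo. NEO-IN versus NEO-OUT (2180) gave 441 with the visceral endoderm score, 1262 with the Hox score, 1432 with runs as a block, 1218 without Y-linked libraries and 1673 to 2245 without 1 embryo. The counts against wild-type that fell by over 1.5 times without 1 embryo were those without wild-type 1, 2 or 3, at 239, 206 and 223 in NEO-IN, 383, 421 and 500 in NEO-OUT, and 153, 160 and 200 in Apela KO.

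Replicate numbers 1 to 3 are shared by NEO-IN and wild-type, but same-numbered embryos did not deviate together (r = 0.07, -0.02 and 0.00), so the numbers do not pair them. With the number as a block over these 6 embryos, 0 endoderm genes and 487 genes in all were called, and Hhex was -0.061. Depth limits Pyy and Gsc, and the 3 wild-type embryos limit each comparison with wild-type.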
